A study of Arabidopsis thaliana with 12 samples.

Results

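HTB1 (AT1G07790) and HTB2 (AT5G22880) are Arabidopsis thaliana genes for histone H2B. By group mean of the deposited signals, both were more than 2-fold higher in untreated axr2 seedlings than in untreated wild type. With arrays centred on their medians, HTB1 fell short of 2-fold. Both genes were chosen by name, with earlier results of these data known. Each gene had 1 probe set on the Affymetrix ATH1 array that was paired with it and with no other gene. The members were thus 2 of the 13350 genes with a probe set of their own. Transcripts were measured in 4-day-old dark-grown seedlings of the Columbia ecotype, in wild type (WT) and in the auxin-response mutants msg2 and axr2. In each genotype 2 arrays came from seedlings given the brassinosteroid 24-epibrassinolide (24-eBL) at 100 nM in the medium, and 2 mock arrays came from seedlings grown without the hormone. Seeds had 8 h of light to germinate before 4 days in darkness. The 6 groups of genotype and treatment held 2 arrays each, which the submitters call biological replicates. As background, msg2 and axr2 are dominant mutants of Aux/IAA genes, which encode repressors of auxin-responsive transcription, and the labels name no allele. Whole seedlings were used, so a change in the number of cells of a type and a change in RNA per cell cannot be told apart.

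Histone H2B pairs with histone H2A, and 2 such pairs join the histones H3 and H4 in the core of the nucleosome around which DNA is wound. Most core histone mRNA is made while DNA replicates, so growing tissues with dividing or endoreduplicating cells are rich in it. H2B is also a substrate of ubiquitination, a mark connected with transcription. The H2B genes of Arabidopsis form a family of similar sequences, and how far a probe set of one gene also binds transcripts of another was not tested here. The H2B genes HTB4 and HTB11 also had a probe set of their own.

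Values are log2 of the MAS 5.0 signal, the expression measure of Affymetrix arrays, as deposited. Differences are log2 differences ± SE from a limma fit to all 12 arrays, with p adjusted by the Benjamini-Hochberg method over the 15046 probe sets tested, and called means an adjusted p under 0.05. Array pairs correlated with Pearson r of 0.968 to 0.979 within groups and 0.890 to 0.968 across groups. The signals of HTB1 and HTB2 lay above the 40th percentile of the array on all 12 arrays, by at least 2.73 for HTB1 and 2.20 for HTB2 on the log2 scale. Of 8 marker genes of etiolated and light-grown seedlings none had a probe set of its own, so the darkness of the growth conditions was not checked on the arrays.

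HTB1 had nearly the same signal on all 4 wild-type arrays and stepped upward from wild type to msg2 to axr2. The untreated wild-type arrays stood at 9.01 and 9.01, and the treated ones at 8.92 and 9.03. In msg2 the untreated arrays stood at 9.10 and 9.39 and the treated ones at 9.73 and 9.68. In axr2 the untreated arrays stood at 10.06 and 10.20 and the treated ones at 10.20 and 9.88. All 4 msg2 arrays lay above all 4 wild-type arrays, a separation that 7.24% of tested probe sets had in that direction, and all 4 axr2 arrays lay above all 4 msg2 arrays, as for 12% of probe sets. By group mean the order ran from treated wild type (8.97 ± 0.079, SD, n = 2) through untreated wild type (9.01 ± 0.00086), untreated msg2 (9.24 ± 0.20), treated msg2 (9.70 ± 0.030) and treated axr2 (10.04 ± 0.23) to untreated axr2 (10.13 ± 0.099). Arrays of neighbouring groups overlapped at both ends of that order, within wild type and within axr2. None of the 5 pairs of neighbours in the order was called different by the fit.

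HTB2 had its highest values in untreated axr2 as well. The untreated wild-type arrays stood at 8.41 and 8.19, and the treated ones at 8.94 and 8.34, a wide gap within 1 group. In msg2 the untreated arrays stood at 8.61 and 8.84 and the treated ones at 8.81 and 8.75. In axr2 the untreated arrays stood at 9.43 and 9.65 and the treated ones at 9.21 and 8.98. All 4 axr2 arrays lay above the other 8, while the msg2 arrays fell within the range of the treated wild type. Of all tested probe sets, 19.6% had axr2 above wild type in this way and 12% had axr2 above msg2. The share with axr2 above both was not counted. By group mean the order was untreated wild type (8.30 ± 0.16, SD, n = 2), treated wild type (8.64 ± 0.42), untreated msg2 (8.72 ± 0.16), treated msg2 (8.78 ± 0.044), treated axr2 (9.10 ± 0.17) and untreated axr2 (9.54 ± 0.16). No pair of neighbours in this order was called different. Treated wild type and untreated msg2, which the design does not compare, overlapped.

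**Figure D1:**
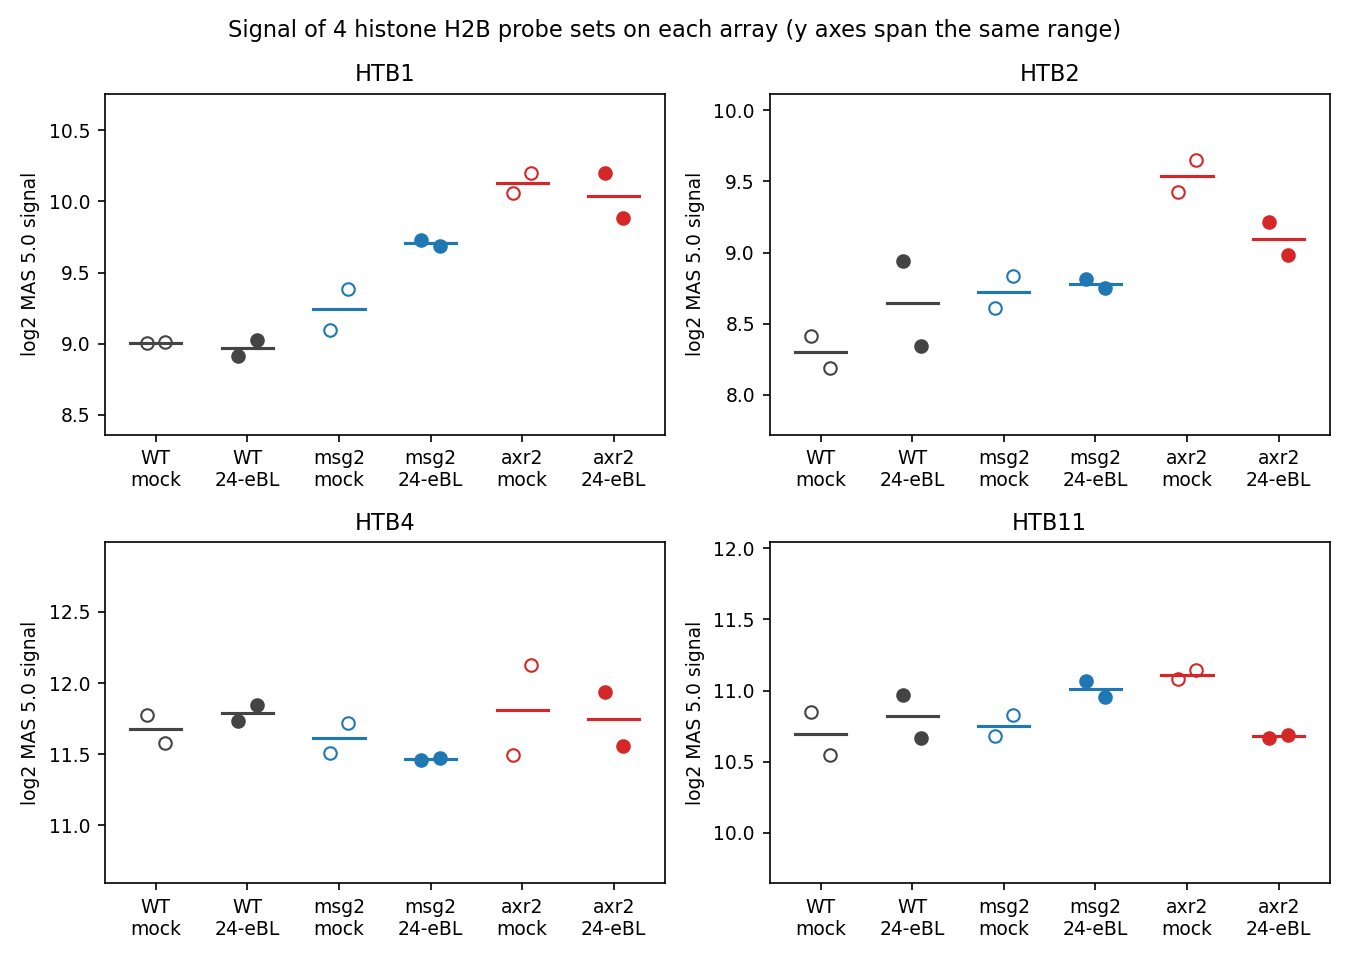
The log2 signal of 4 histone H2B probe sets is plotted by group, with 1 point per array (open for mock, filled for 24-eBL) and a line at the mean of the 2 arrays. HTB1 climbs from about 9.01 in untreated wild type to 10.13 in untreated axr2 and HTB2 from 8.30 to 9.54, while the groups of HTB4 and HTB11 lie closer together.

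Without 24-eBL, both genes rose in axr2 against wild type. HTB1 was 2.17-fold higher (1.12 ± 0.17, adjusted p = 7e-05) and HTB2 2.36-fold higher (1.24 ± 0.20, adjusted p = 0.00015). Both stayed called without any 1 of the 12 arrays, with adjusted p up to 0.0014 for HTB1 and 0.0040 for HTB2. A call was common in this comparison: 35.4% of the tested probe sets were called, and 20.5% were called higher (3077 higher and 2251 lower, or 1771 and 3370 once arrays were centred on their medians). The median probe set differed by 0.13 in the same direction, and by −0.094 after that centring. Relative to the median of all probe sets HTB1 was higher by 0.99 and HTB2 by 1.11. After centring the differences were 0.90 and 1.02, both still called.

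Untreated axr2 also exceeded untreated msg2 in both genes, where 16.8% of probe sets were called and 8.25% called higher (1242 higher and 1280 lower, or 670 and 1838 after centring). HTB1 was 1.85-fold higher (0.89 ± 0.17, adjusted p = 0.0016) and kept the call without any 1 array. HTB2 was 1.76-fold higher (0.82 ± 0.20, adjusted p = 0.010). That call was lost, with adjusted p of 0.12, without msg2_mock replicate 1 and, with 0.083, without axr2_mock replicate 2. Between untreated msg2 and untreated wild type neither gene was called, in a comparison with 4.11% of probe sets called. HTB1 differed by 0.23 ± 0.17 (adjusted p = 0.52; 95% interval −0.12 to 0.59) and HTB2 by 0.42 ± 0.20 (adjusted p = 0.29; interval −0.0065 to 0.85). For both genes the msg2 arrays lay above the wild-type arrays, as did 30.2% of all tested probe sets.

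With 24-eBL present, HTB1 rose in both mutants against wild type and HTB2 was not called in either. In axr2 HTB1 was 2.10-fold higher (1.07 ± 0.17, adjusted p = 0.00012), with 28.6% of probe sets called and 14.6% called higher. In msg2 HTB1 was 1.66-fold higher (0.73 ± 0.17, adjusted p = 0.014), with 7.5% called and 4.06% called higher. That msg2 call was lost without WT_BR replicate 1 (adjusted p = 0.091), msg2_BR replicate 1 (0.10) or msg2_BR replicate 2 (0.058). HTB2 differed from treated wild type by 0.45 ± 0.20 in axr2 (adjusted p = 0.11) and by 0.14 ± 0.20 in msg2 (adjusted p = 0.77). The axr2 value depended on the treated wild-type pair, being 0.75 (adjusted p = 0.022) without WT_BR replicate 1 and 0.16 (adjusted p = 0.67) without WT_BR replicate 2. Treated axr2 and treated msg2 differed by 0.34 ± 0.17 for HTB1 and 0.32 ± 0.20 for HTB2, with adjusted p of 0.22 and 0.35, where 12.8% of probe sets were called.

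Averaged over both treatments, a comparison added after the values had been seen, the genotypes were ordered alike in both genes. HTB1 was higher in axr2 than in wild type by 1.09 ± 0.12 (adjusted p = 8.7e-07) and higher than in msg2 by 0.61 ± 0.12 (adjusted p = 0.00098). HTB1 was also higher in msg2 than in wild type by 0.48 ± 0.12 (adjusted p = 0.012), or 0.41 (adjusted p = 0.079) without msg2_mock replicate 2. HTB2 was higher in axr2 than in wild type by 0.85 ± 0.14 (adjusted p = 0.00011) and than in msg2 by 0.57 ± 0.14 (adjusted p = 0.0069). Its difference between msg2 and wild type was 0.28 ± 0.14 (adjusted p = 0.23). The shares of all tested probe sets called were 46% for axr2 against wild type, 28.5% for axr2 against msg2 and 13% for msg2 against wild type.

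**Figure D2:**
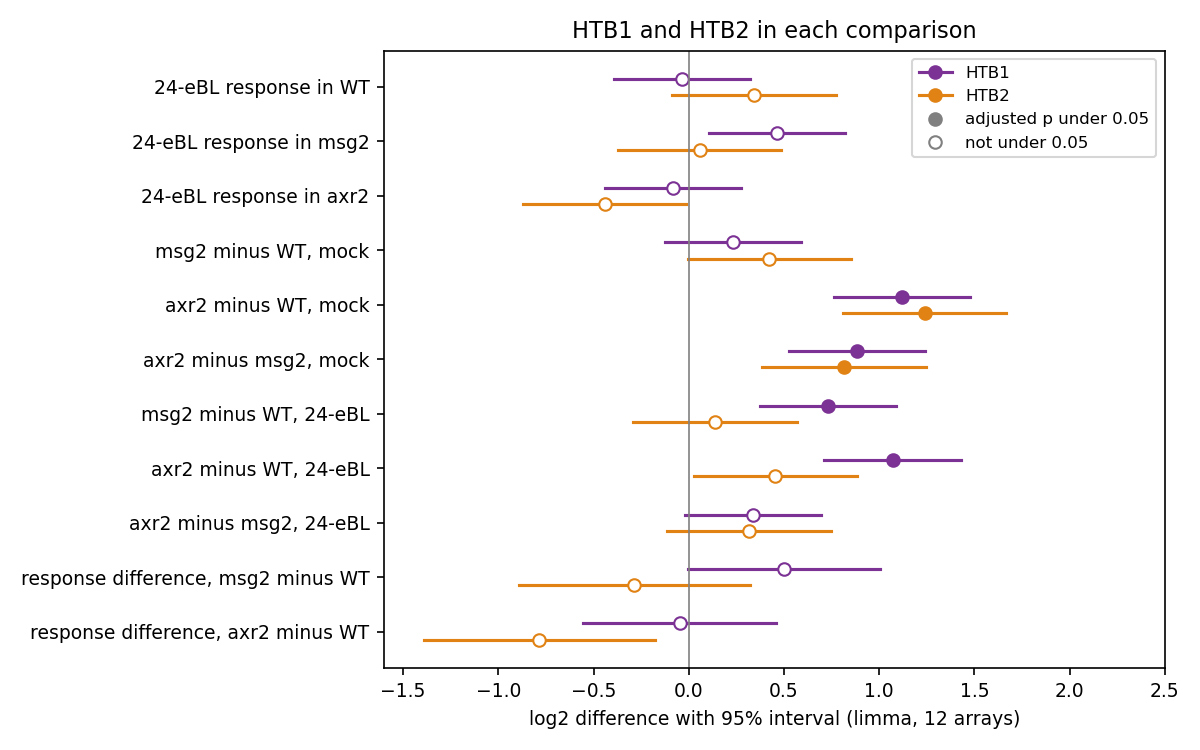
Points are log2 differences of HTB1 and HTB2 in 11 comparisons, with 95% intervals from the fit to 12 arrays, and filled points have adjusted p under 0.05. The filled points are those of untreated axr2 against wild type and msg2 for both genes, and of both treated mutants against wild type for HTB1 (not HTB2), while no response to 24-eBL is filled.

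The response to 24-eBL passed the threshold for neither gene in any genotype. The shares of all probe sets called were 4.66% in wild type, 3.91% in msg2 and 2.41% in axr2. In wild type HTB1 differed by −0.036 ± 0.17 (95% interval −0.39 to 0.32) and HTB2 by 0.34 ± 0.20 (interval −0.086 to 0.77). In msg2 HTB1 was 0.46 ± 0.17 higher with 24-eBL (adjusted p = 0.17; interval 0.11 to 0.82), and the treated arrays lay above the untreated ones, as they did for 23.2% of tested probe sets. HTB2 in msg2 differed by 0.057 ± 0.20 (interval −0.37 to 0.49). In axr2 HTB1 differed by −0.085 ± 0.17 (interval −0.44 to 0.27). HTB2 in axr2 was lower with 24-eBL by a log2 difference of −0.44 ± 0.20 (adjusted p = 0.31; interval −0.87 to −0.012), with no overlap between the arrays, as for 25.2% of probe sets in that direction.

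Averaged over the genotypes, HTB1 differed by 0.11 ± 0.098 (adjusted p = 0.57) and HTB2 by −0.014 ± 0.12 (adjusted p = 0.96), against 8.7% of probe sets called. The response of HTB1 in msg2 minus that in wild type was 0.50 ± 0.24 (adjusted p = 0.55; 0.213% of probe sets called), and that of HTB2 −0.29 ± 0.29 (adjusted p = 0.84). The response in axr2 minus that in wild type was −0.048 ± 0.24 for HTB1 (adjusted p = 0.95; 2.59% called) and −0.78 ± 0.29 for HTB2 (adjusted p = 0.16). The HTB2 difference reached adjusted p = 0.047 without WT_BR replicate 2. None of these differences of response was called with all 12 arrays.

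HTB1 and HTB2 followed each other across the arrays with Pearson r = 0.83 over 12 arrays, which share their groups, and with r = 0.31 for deviations from the group means. HTB1 minus HTB2 within an array shows where the pair moved unequally. In untreated seedlings the log2 difference was 0.59 and 0.82 in wild type, 0.49 and 0.55 in msg2 and 0.63 and 0.55 in axr2. With 24-eBL it was 0.92 and 0.94 in msg2 and 0.99 and 0.90 in axr2, above the untreated arrays of both mutants. The treated wild-type arrays stood at −0.025 and 0.68, below or among the untreated ones. Over the 3 genotypes the difference between 24-eBL and mock was 0.13 (exact permutation test within genotypes, two-sided, p = 0.50, 6 arrays against 6; smallest possible p = 0.00926). Without WT_BR replicate 1, the array at −0.025, it was 0.25, so the value depended on 1 array. This comparison was added after the values had been seen.

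**Figure D3:**
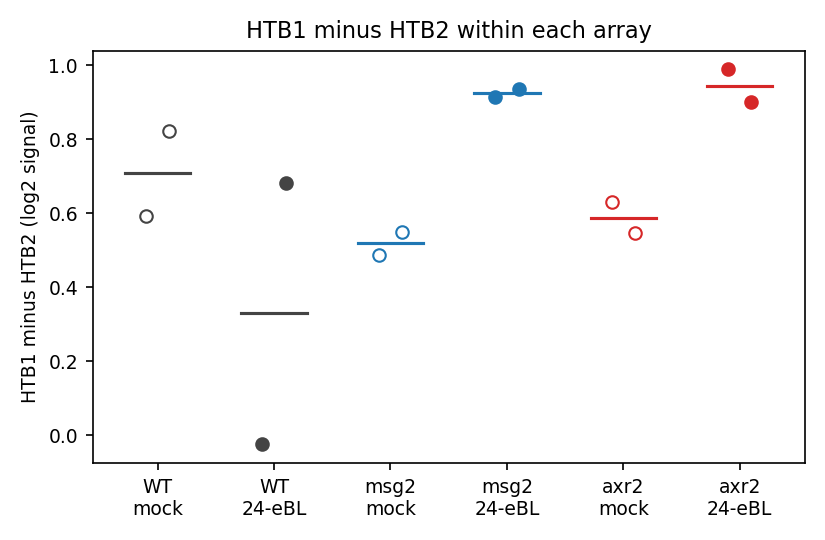
The log2 signal of HTB1 minus that of HTB2 is plotted for each array by group, with a line at the mean of the 2 arrays (open points for mock, filled for 24-eBL). The treated arrays of msg2 and axr2 lie between 0.90 and 0.99, above their untreated arrays at 0.49 to 0.63, and 1 treated wild-type array stands at −0.025.

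The other H2B genes with a probe set of their own had smaller fitted differences between untreated axr2 and wild type. HTB4 stood between 11.46 and 12.13 on the 12 arrays, with 11.78 and 11.58 in untreated wild type and 11.50 and 12.13 in untreated axr2, which overlap. HTB4 differed by 0.13 ± 0.18 between untreated axr2 and wild type (adjusted p = 0.62), and by −0.090 after centring. HTB11 stood at 10.85 and 10.55 in untreated wild type and at 11.08 and 11.14 in untreated axr2, and was called higher by 0.41 ± 0.16 (adjusted p = 0.047). HTB11 lost that call in 9 of 12 leave-outs and after centring (0.19, adjusted p = 0.36). With 24-eBL, HTB11 differed by −0.14 ± 0.16 between axr2 and wild type (adjusted p = 0.55).

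The pairs were also compared within arrays, over the 4 axr2 and 4 wild-type arrays of both treatments, a comparison added after the values had been seen. The difference between axr2 and wild type was larger for HTB1 than for HTB4 by 1.05 and than for HTB11 by 0.96. It was larger for HTB2 than for HTB4 by 0.80 and than for HTB11 by 0.71. Exchanging genotype labels within each treatment, an exact two-sided permutation test gave p = 0.0556 for each of the 4 pairs, the smallest that 36 splits allow, so this test cannot pass the threshold. Exchanging them across treatments as well, which ignores the treatment, the exact permutation test gave p = 0.0286 for each. That is the smallest that 70 splits allow and the same after adjustment over the 4 pairs. For HTB2 against HTB4, that exact p was 0.0571 without any 1 of the 4 axr2 arrays. HTB1 and HTB2 were chosen with earlier results of these data known, so these p-values are no separate support for a difference from HTB4 and HTB11.

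Of 35 histone genes found in the gene table by symbol or name, 8 had a probe set of their own and 7 of these were tested. In untreated axr2 against wild type 4 of the 7 were called higher and 1 lower, with a median of 0.41 against 0.13 over all tested probe sets, of which 35.4% were called and 20.5% called higher. HTB1 and HTB2, chosen with earlier results of these data known, are 2 of those 4 and also enter the median. The count and the median are thus no separate support for them. The other 2 called higher, HTB11 and HTR12, lost the call after centring. For HTR12, the centromeric histone H3, 1 wild-type array lay below the 40th percentile (fitted 0.94 ± 0.33, adjusted p = 0.037). With the value there raised to that percentile, HTR12 was 1.68-fold higher in axr2, an estimate and not a lower limit. HTR12 had adjusted p of 0.10 after centring, 0.12 after quantile normalisation and 0.30 without WT_mock replicate 2. HIS1-3, a linker histone H1 variant known for its induction by drought, was called lower in axr2 (fitted −3.52 ± 0.45, adjusted p = 1.3e-05). Both axr2 arrays lay below the 40th percentile, and with their values raised to it HIS1-3 was 2.46-fold lower. HON4, which carries the globular domain of linker histones, differed by 0.16 ± 0.20 (adjusted p = 0.58). MGH3, a histone H3 of male gametes, was too dim to be tested. Between treated axr2 and treated wild type, HTB1 was called higher and HIS1-3 lower of these 7 genes, where 28.6% of all probe sets were called. No response to 24-eBL was called among them, against 4.66% of probe sets in wild type, 3.91% in msg2 and 2.41% in axr2.

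None of 4 tested genes that handle histones or the H2B mark was called between untreated axr2 and wild type, where 35.4% of all probe sets were. ASF1B and SGA2 (ASF1A), histone chaperones for H3 and H4, differed by 0.33 ± 0.17 and −0.14 ± 0.18 (adjusted p = 0.13 and 0.57). Over both treatments ASF1B was called higher in axr2 (0.31 ± 0.12, adjusted p = 0.038), where 46% of probe sets were called. UBP22 and UBP26, proteases that remove ubiquitin from H2B, differed by 0.0094 ± 0.20 and 0.053 ± 0.32 (adjusted p = 0.98 and 0.92), and both values turned negative with arrays centred. Only these 2 of 17 genes of the H2B ubiquitin list, and 2 of 19 of the chaperone list, had a probe set of their own.

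The few measured replication and division genes moved with HTB1 and HTB2 in part. Only 3 of 47 replication genes, 2 of 56 cell-cycle regulators and 7 of 35 mitosis genes had a probe set of their own. PRL, the MCM7 subunit of the replicative helicase, stood at 7.70 and 7.25 in untreated wild type and 8.45 and 8.34 in untreated axr2, a 1.89-fold rise (0.92 ± 0.22, adjusted p = 0.0039; 0.066 without WT_mock replicate 2). PSF2, a subunit of the GINS complex of the replication fork, differed by 0.69 ± 0.33 (adjusted p = 0.12). Over both treatments PSF2 was called higher in axr2 (0.62 ± 0.24, adjusted p = 0.038), with overlapping arrays, where 46% of probe sets were called. ICU2, the catalytic subunit of DNA polymerase alpha, was too dim to be tested. Of 7 measured mitosis genes 5 were tested and 3 were called higher, with a median of 0.62, against 20.5% of all probe sets called higher and a median of 0.13. AUR2, an Aurora kinase of dividing cells, rose 1.77-fold (0.83 ± 0.23, adjusted p = 0.0089; 0.10 without WT_mock replicate 2). BUB3.1, of the spindle checkpoint, rose by 0.62 ± 0.23 (adjusted p = 0.042), a call lost without any 1 of the 4 compared arrays (adjusted p up to 0.20) and also after centring (0.17) or quantile normalisation (0.098). HTR12, given above, was the other. AUR3, also an Aurora kinase, was not called (−0.34 ± 0.47, adjusted p = 0.61), with arrays at 6.60 and 6.12 in untreated wild type and 6.24 and 5.80 in untreated axr2, which overlap, and both axr2 arrays below the 40th percentile.

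Among cell-cycle regulators TSO1, a CXC-domain protein known from meristem and flower development, rose by 0.93 ± 0.21 in untreated axr2 (adjusted p = 0.0019) and kept the call without any 1 array. With 24-eBL, TSO1 differed by 0.028 ± 0.21 between axr2 and wild type (adjusted p = 0.94), and the difference of the 2 responses was −0.91 ± 0.29 (adjusted p = 0.11). SIM, an inhibitor of cyclin-dependent kinases that favours endoreduplication, fell by 0.58 on the log2 scale (adjusted p = 0.015). SIM lost the call without WT_mock replicate 2 (adjusted p = 0.25) or axr2_mock replicate 1 (0.065). With 24-eBL, PRL and AUR2 were called higher in axr2 than in wild type (0.98 ± 0.22 and 0.74 ± 0.23, adjusted p = 0.0030 and 0.020). SIM was called lower there (−0.58 ± 0.17, adjusted p = 0.017), where 28.6% of all probe sets were called. PSF2, AUR3, BUB3.1 and HTR12 were not called in that treated comparison. AUR1 was the only one of 7 markers of dividing cells with a probe set of its own. It stood at 8.05 and 7.64 in untreated wild type and at 8.17 and 8.33 in untreated axr2. That difference was not called (0.41 ± 0.22, adjusted p = 0.15), nor was the one with 24-eBL (0.58 ± 0.22, adjusted p = 0.055). Over both treatments AUR1 was called higher in axr2 than in wild type (0.49 ± 0.15, adjusted p = 0.014), where 46% of probe sets were called. The summed signal of the 7 mitosis genes, on the linear scale, was 680 to 857 in untreated wild type, 773 to 972 in untreated msg2 and 1096 to 1121 in untreated axr2. The part of dividing cells in the HTB1 and HTB2 values was not tested.

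Among markers of other cells, EXPA7 and EXPA18, expansins of root hairs, were 2 of 5 root-hair genes with a probe set of their own, and neither was called between untreated axr2 and wild type (−0.32 ± 0.45 and 0.33 ± 0.24, adjusted p = 0.62 and 0.30). With 24-eBL, EXPA18 fell in every genotype, with log2 differences of −2.02 in wild type, −2.98 in msg2 and −1.55 in axr2. Its adjusted p went up to 0.00092. EXPA7 was called lower in wild type (−2.09, adjusted p = 0.0094) and msg2 (−2.40, adjusted p = 0.0039). In axr2 EXPA7 was not called (−1.40, adjusted p = 0.12). The shares of all probe sets called were 4.66%, 3.91% and 2.41% in that order. EXPA18 was called higher in treated axr2 than in treated wild type (0.80 ± 0.24, adjusted p = 0.017), as were 14.6% of probe sets. EXPA7 was not called there (0.37 ± 0.45, adjusted p = 0.59). The summed linear signal of both genes was 496 to 582 in untreated wild type, 714 to 943 in untreated msg2 and 575 to 625 in untreated axr2. With 24-eBL it was 128 to 138, 100 to 135 and 158 to 278. CLV3, of the shoot meristem, was the only one of 4 such markers measured and was too dim to be tested. The part of root hairs in the HTB1 and HTB2 values was not tested.

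**Figure D4:**
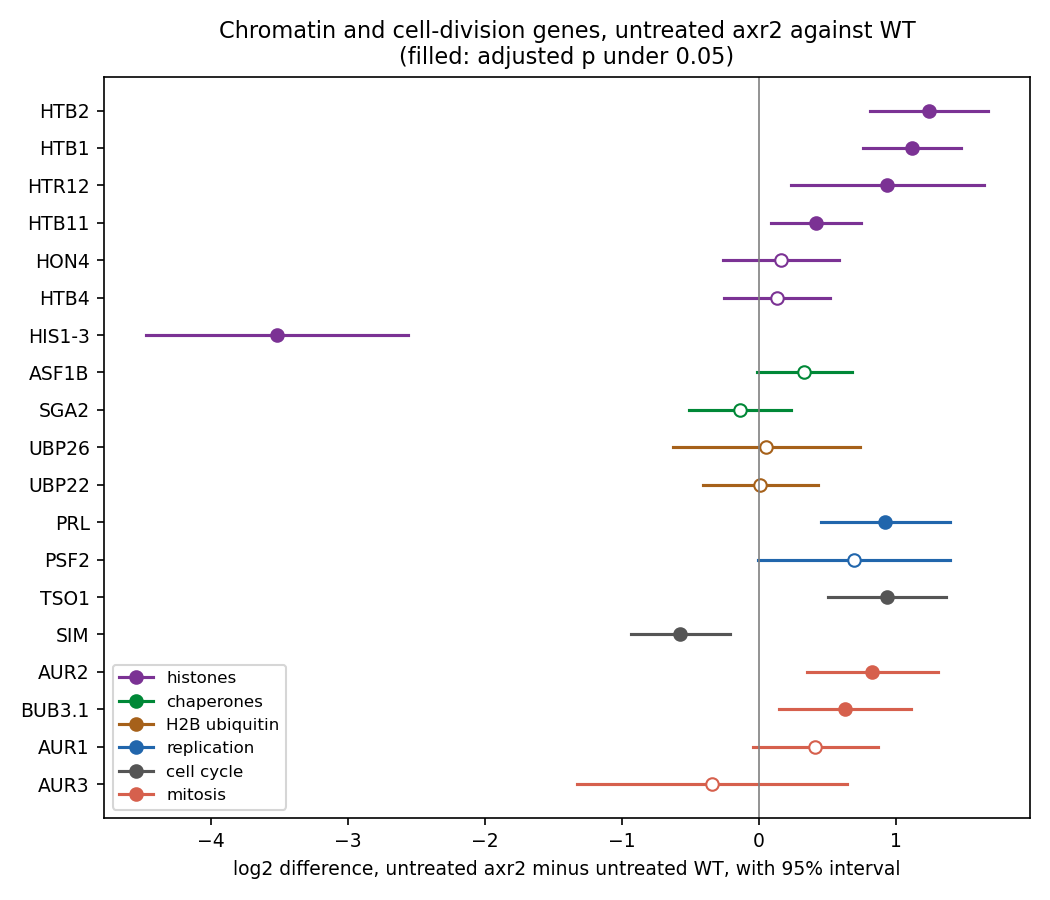
Log2 differences between untreated axr2 and untreated wild type are shown with 95% intervals for the tested genes of the 6 lists, coloured by list, and filled points have adjusted p under 0.05. HTB2 (1.24) and HTB1 (1.12) stand highest, HTR12 (0.94), TSO1 (0.93), PRL (0.92) and AUR2 (0.83) follow, and HIS1-3 stands apart at −3.52.

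Many genes shared the pattern of the pair across the arrays. Of 8164 tested single-gene probe sets 769 had Pearson r of 0.8 or more, over the 12 arrays, with the mean of HTB1 and HTB2. The 5 most alike were AT2G01250 (r = 0.985), AT5G62440 (0.983), AT1G02870 (0.981), AT1G67430 (0.978) and AT4G29410 (0.977). AT5G62440 rose from 7.67 in untreated wild type to 9.15 in untreated axr2, and AT4G29410 from 11.18 to 12.26. All 5 were called in that comparison (adjusted p up to 0.00025), as were 35.4% of all tested probe sets. They were picked for their likeness on these same arrays, so their calls are no separate support. The 3 genes most opposed were AT1G56220 (r = −0.979), AT1G26800 (−0.974) and AT1G30260 (−0.972), and AT1G56220 stood at 13.88 in untreated wild type and 12.16 in untreated axr2. Among the lists above HTR12 ranked 117th by likeness (r = 0.914), PRL had r = 0.86, AUR2 0.83, ASF1B 0.77 and AUR1 0.70. HTB11 and HTB4 had r = 0.55 and 0.27, AUR3 0.100, HON4 −0.0082 and SGA2 −0.31. These correlations describe arrays that share 6 groups and are given without a test.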

How the data were processed

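The values were the deposited log2 signals of 12 ATH1 arrays, computed by the authors with MAS 5.0 and GeneSpring 11.0, per the series' design text. The 2% trimmed mean of the linear signal lay at 500.05 or 500.06 on every array, so the arrays were already scaled to one mean and were not normalised again. The number of arrays limits the precision, and detection calls were not used. Of 22810 probe sets 64 controls were left out. Of the rest, the probe table paired 13513 with 1 gene, 503 with several and 8730 with none. Gene symbols were brought to those of TAIR10.1, through the gene ID (13436) or the locus (48). No genome build is given in the sources used here, so no coordinates are printed.

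Tests covered the probe sets above the array's own 40th percentile on 2 or more arrays. One mean per group was fitted in limma 3.58.1 (R 4.3.3) with an intensity trend in eBayes (6 residual degrees of freedom, prior 12.04). There were 12 comparisons, and 3 more averaged over treatments. The fit was tested on simulated data. Same-numbered replicates did not deviate together between groups (r = −0.078 to 0.069), so replicate numbers were not used as pairs. HTB1, HTB2 and the lists were chosen with earlier results of these data known. Named genes were both members, every histone gene with its own probe set, up to 3 called genes of each other list (all members of lists with 3 or fewer measured), and the 5 most and 3 least alike by Pearson r. AUR1 is named as a marker, and AUR3 is named in addition to this rule, though it was not called. Alternatives were quantile normalisation, centred arrays, an offset of 16, leaving out the filter, a 60th percentile filter, no trend, a robust fit, the compared arrays alone, a replicate block, and leaving out each array.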

Additional observations from a re-analysis of the deposited data

How the results depend on the processing

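In untreated axr2 against untreated wild type, HTB1 and HTB2 kept their direction and their call under all 9 alternatives and 12 leave-outs, with log2 differences of 0.90 to 1.19 and 1.02 to 1.35. A replicate block, used although the replicate numbers did not pair the arrays, changed no call of either gene (HTB1 1.12, adjusted p = 0.00013; HTB2 1.24, adjusted p = 0.00021, in that comparison), while HTB11 lost its call there (0.41, adjusted p = 0.054). Centring arrays on their medians turned values that were not called: HTB1 to 0.046 in the response of axr2 and 0.14 in that response minus the wild-type response, HTB2 to 0.036 in the mean response, and, in untreated axr2 against wild type, UBP22 to −0.21, UBP26 to −0.17, HTB4 to −0.090 and HON4 to −0.064. Quantile normalisation gave −0.14 for UBP22 and −0.22 for UBP26.

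Leaving out 1 array at a time gave the following ranges. In the 24-eBL response HTB1 ran from −0.092 to 0.020 in wild type, −0.25 to 0.077 in axr2 and 0.060 to 0.17 in the mean, and HTB2 from 0.044 to 0.64 in wild type, −0.056 to 0.17 in msg2 and −0.11 to 0.086 in the mean. In untreated axr2 against wild type UBP22 ran from −0.040 to 0.059, UBP26 from −0.14 to 0.25 and HTB4 from −0.18 to 0.45. HTB2 ran from 0.70 to 0.93 in untreated axr2 against msg2, and HTB1 from 0.089 to 0.38 in untreated msg2 against wild type. With 24-eBL, msg2 against wild type ran from 0.68 to 0.79 for HTB1 and −0.16 to 0.44 for HTB2, and axr2 against wild type from 0.16 to 0.75 for HTB2 and −0.29 to 0.015 for HTB11. Treated axr2 against msg2 ran from 0.18 to 0.50 for HTB1 and 0.20 to 0.43 for HTB2. The difference of response ran from −0.58 to 0.013 (msg2) and −1.08 to −0.49 (axr2) for HTB2, and −0.21 to 0.11 (axr2) for HTB1. HTB1 in msg2 against wild type over both treatments ran from 0.41 to 0.56 and HTB2 from 0.13 to 0.43. Within arrays, HTB1 minus HTB2 ran from 0.0100 to 0.25 between treatments, and HTB2 minus HTB4 from 0.67 to 0.96 between axr2 and wild type. Permuting within treatments left HTB1 minus HTB4 (1.05), HTB1 minus HTB11 (0.96), HTB2 minus HTB4 (0.80) and HTB2 minus HTB11 (0.71) without a call, since 36 splits allow no exact p under 0.0556.

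Counts of called probe sets also moved. Over all alternatives and leave-outs they ran from 351 to 839 in the wild-type response (701 as reported), 237 to 935 in that of msg2 (588) and 165 to 411 in that of axr2 (362). Untreated, they ran from 144 to 1035 for msg2 against wild type (619) and 1044 to 2667 for axr2 against msg2 (2522). With 24-eBL they ran from 369 to 1297 for msg2 against wild type (1129), 2819 to 4566 for axr2 against wild type (4298) and 1034 to 2152 for axr2 against msg2 (1924). They were 1 to 51 (32) and 126 to 518 (390) for the differences of response of msg2 and axr2, and 1068 to 2204 (1952) for msg2 against wild type over both treatments. The causes were not tested. With 2 arrays per group, intervals of about 0.4 on either side of a log2 difference leave smaller responses to 24-eBL unresolved.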
